A study of Mus musculus with 25 samples.

Results

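Collagens and laminins are the chains from which cells build the fibres and sheets of the extracellular matrix. They were measured here in mouse astrocytes kept in culture. The chains were taken by name, as every entry called Col or Lama, Lamb or Lamc followed by the numbers of a chain. This gave 55 of the 54429 entries of the deposited table, 44 collagen chains and 11 laminin chains. Of these, 47 reached 1 CPM (1 read in 1000000 counted reads) in at least 2 libraries and were tested, together with all other genes that did (19805 in all).

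Astrocytes came from the cortex of C57BL/6J mice and were purified by immunopanning, in which cells are caught on a dish coated with an antibody, here against the astrocyte surface protein HepaCAM. Their RNA was sequenced in 25 libraries. Cells given an EGFR inhibitor from day 2 in vitro (3 libraries) were set against cells given DMSO, the solvent (3 libraries). Cells from which HBEGF, a growth factor that activates EGFR, was withdrawn on the day of preparation (2 libraries) were set against cells given HBEGF on that day (2 libraries). Cells given a P53 inhibitor from day 2 (3 libraries) were set against their own DMSO controls (3 libraries). Untreated cultures were sampled on days 2, 7 and 14 in vitro, with 3 libraries a day. The identity and dose of the inhibitors, the harvest day of treated cells, the age of the mice and the origin of the replicates do not appear in the sample labels. P-values therefore measure only the spread between these libraries, which may be technical.

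A laminin is a cross-shaped trimer of an alpha, a beta and a gamma chain, and laminins form the first sheet of a basement membrane. Type IV collagen forms the second network of that membrane. Fibrillar collagens form fibrils, and other classes decorate fibrils, form beaded filaments or short-chain lattices, or span the cell membrane. In the brain, basement membranes lie around blood vessels and under the meninges, where astrocyte endfeet meet them, and astrocytes are known as a source of the laminin alpha 2 chain there.

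Each library held between 4011124 and 9694918 counted reads, so that 1 read was worth 0.103 to 0.249 CPM. Mitochondrial ribosomal RNA took 12.3 to 29.8% of them. All 10 astrocyte markers were present in every group. Their summed level was 5700 to 5760 CPM with the EGFR inhibitor and 2630 to 2860 CPM with DMSO. It was 3810 to 4160 CPM after HBEGF withdrawal and 2590 to 2630 CPM with HBEGF. Single markers did not all follow the sum: 7 were called higher and 1 lower with the inhibitor (80% called, against 43.3% of all genes). After withdrawal 5 were called higher and 2 lower (70%, against 36.0% of all genes). Aldh1l1 was at 63.2 and 42.9 CPM after withdrawal and at 119 and 146 CPM with HBEGF, and Slc1a3 at 853 and 951 CPM against 1340 and 1270 CPM. In such bulk libraries, fewer cells of a type and less RNA per cell cannot be told apart. Tests used limma on log2(CPM + 1), a scale that understates the fold of low genes. P-values were adjusted over all 19805 genes, and a gene was called when its adjusted p was below 0.05. Levels are given in CPM as mean ± SD, and changes as log2 differences ± SE. Levels of different chains are compared only per kilobase of exon.

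Per exon length, the chain with the highest level was Lamc1, the gamma 1 chain shared by most laminins, at 29.8 CPM per kilobase of exon (mean of the 9 groups). Lamb2 followed at 10.2, Lama5 at 5.82 and Col9a3 at 5.76 on the same scale. The next were Col4a5 at 4.62, Col11a1 at 4.3, Col5a2 at 3.31 and Col4a1 at 2.56. This order depends on the length used, and how reads were assigned to genes is not stated. Per kilobase of whole gene span, as in the deposited values, Lamb2 lay above Lamc1 in every library. At the low end was Col1a1, the main chain of type I collagen, which stayed below 1 CPM in every library except HBEGF withdrawal replicate 1 (9.18 CPM). Col1a1 was not tested for this reason, nor were Col24a1, Col6a4, Col6a5, Col8a2, Col19a1, Col13a1 and Lamc3. Col15a1 and Col8a1 passed the filter through 1 group each, the EGFR inhibitor group and the withdrawal group. Each had to differ there, and the counts of called chains include it.

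**Figure D1:**
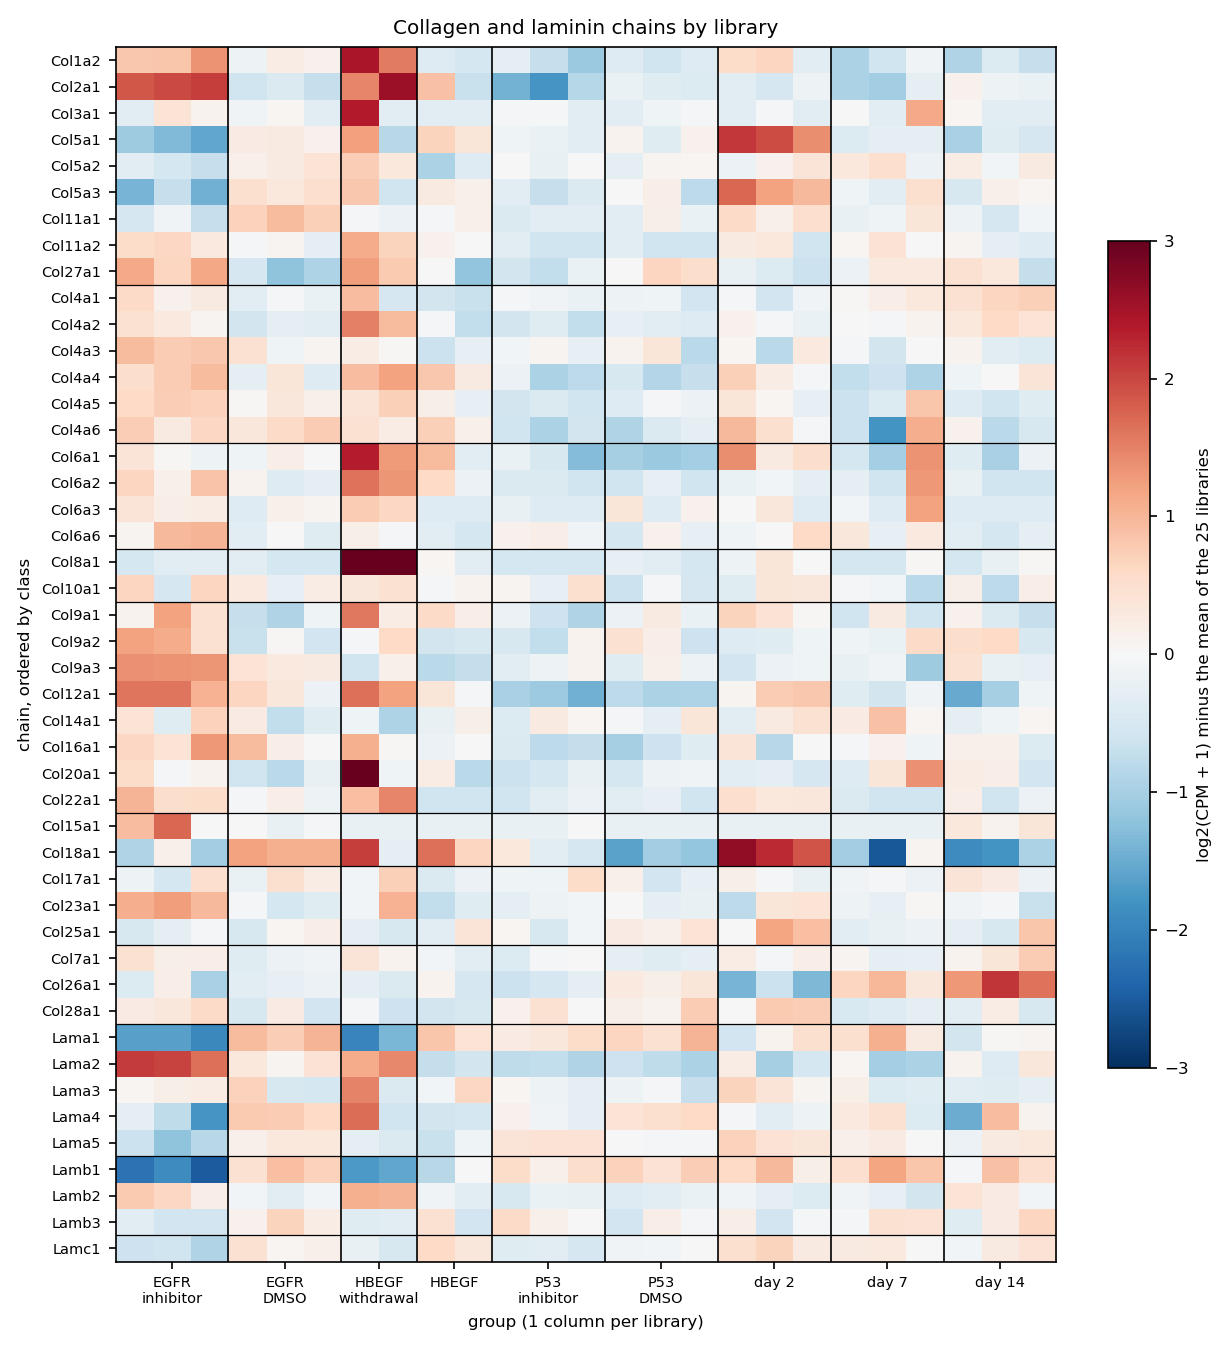
Level of each of 46 tested chains (down) in each of the 25 libraries (across), as log2(CPM + 1) minus the mean of that chain over all libraries. Lines separate groups and chain classes; Lama2 is high and Lama1 and Lamb1 are low in the EGFR inhibitor and HBEGF withdrawal columns, and Col8a1 is high in withdrawal alone.

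With the EGFR inhibitor, 15 chains were higher and 11 were lower than with DMSO among the 47 tested (55.3% called), against 43.3% of all genes called in the same comparison (22.5% higher and 20.7% lower). The median log2 change was 0.49 for the tested chains and 0.06 for all tested genes. Of 10 tested laminin chains 2 were higher and 6 lower, and of 37 collagen chains 13 were higher and 5 lower.

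Lamb1, the beta 1 chain, lies at chr12:31265234-31329644 on the plus strand. Lamb1 stood at 1.89, 2.66 and 1.39 CPM in the EGFR inhibitor libraries and at 17.4, 24.4 and 20.9 CPM in the DMSO libraries. Every inhibitor library was below every DMSO library. The log2 change was -2.89 ± 0.25, with an adjusted p of 7.67e-11 by limma, a 10.6-fold lower mean.

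Lama1, the alpha 1 chain of the first laminin made in the embryo, lies at chr17:67697259-67822647 on the plus strand. Lama1 was at 0.687, 0.666 and 0.347 CPM with the inhibitor and at 9.01, 7.65 and 9.48 CPM with DMSO. These were 10 reads in the 3 inhibitor libraries and 186 in the 3 DMSO libraries, and the groups did not overlap. The log2 change was -2.64 ± 0.28 (limma adjusted p = 5.69e-09), a 15.4-fold lower mean.

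Lama2, the alpha 2 chain whose loss causes a muscular dystrophy with white matter changes in people, moved the other way. It lies at chr10:26980036-27619758 on the minus strand. Lama2 reached 77.3, 73.6 and 57 CPM with the inhibitor and 22, 18.4 and 23.9 CPM with DMSO, with no overlap. Its log2 change was 1.64 ± 0.25 (limma adjusted p = 4.88e-06). A gene on the other strand covers 3.86% of Lama2 exon bases, and whether counting kept strands apart is not stated, so reads of the pair cannot be told apart. Lamb2, the beta 2 chain, was higher too, at 98.9, 89.3 and 66.2 CPM against 53.7, 46.1 and 54 CPM, a log2 change of 0.7 ± 0.15 (limma adjusted p = 0.000273).

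Lamc1 was lower at 153, 157 and 126 CPM with the inhibitor, against 323, 244 and 264 CPM with DMSO. Its log2 change was -0.92 ± 0.13 (limma adjusted p = 5.75e-07). Lama5, the alpha 5 chain, was at 40.7, 27.5 and 35.9 CPM with the inhibitor and at 71.4, 80.1 and 81.2 CPM with DMSO, a log2 change of -1.15 ± 0.15 (limma adjusted p = 1.18e-07). Lama4, the alpha 4 chain of vessel laminins, and Lamb3 were lower as well, with log2 changes of -1.64 ± 0.53 and -0.83 ± 0.3. Lama4 was no longer called without inhibitor replicate 3 (limma adjusted p = 0.0937). Lamb3 was no longer called without DMSO replicate 2 (0.114), inhibitor replicate 2 (0.0609) or inhibitor replicate 3 (0.0603), and its inhibitor libraries averaged 0.0572 CPM.

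Among the chains of each kind, the balance moved. Per exon length, Lamb2 was 72.6 ± 16 times Lamb1 with the inhibitor and 4.11 ± 0.988 times with DMSO (SD, n = 3 each). Lama2 made up 54.4 ± 5.25% of the alpha chain signal with the inhibitor and 12.7 ± 1.47% with DMSO. Lama5 made up 39.1 ± 6.63% with the inhibitor and 65.8 ± 2.97% with DMSO. Lama1 made up 0.742 ± 0.205% with the inhibitor and 8.7 ± 0.878% with DMSO. Lamc1 held 99.7% of the gamma chain signal in both groups. The summed laminin level per exon length was 39.5 ± 5.68 with the inhibitor and 54.6 ± 4.93 with DMSO, in CPM per kilobase of exon.

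**Figure D2:**
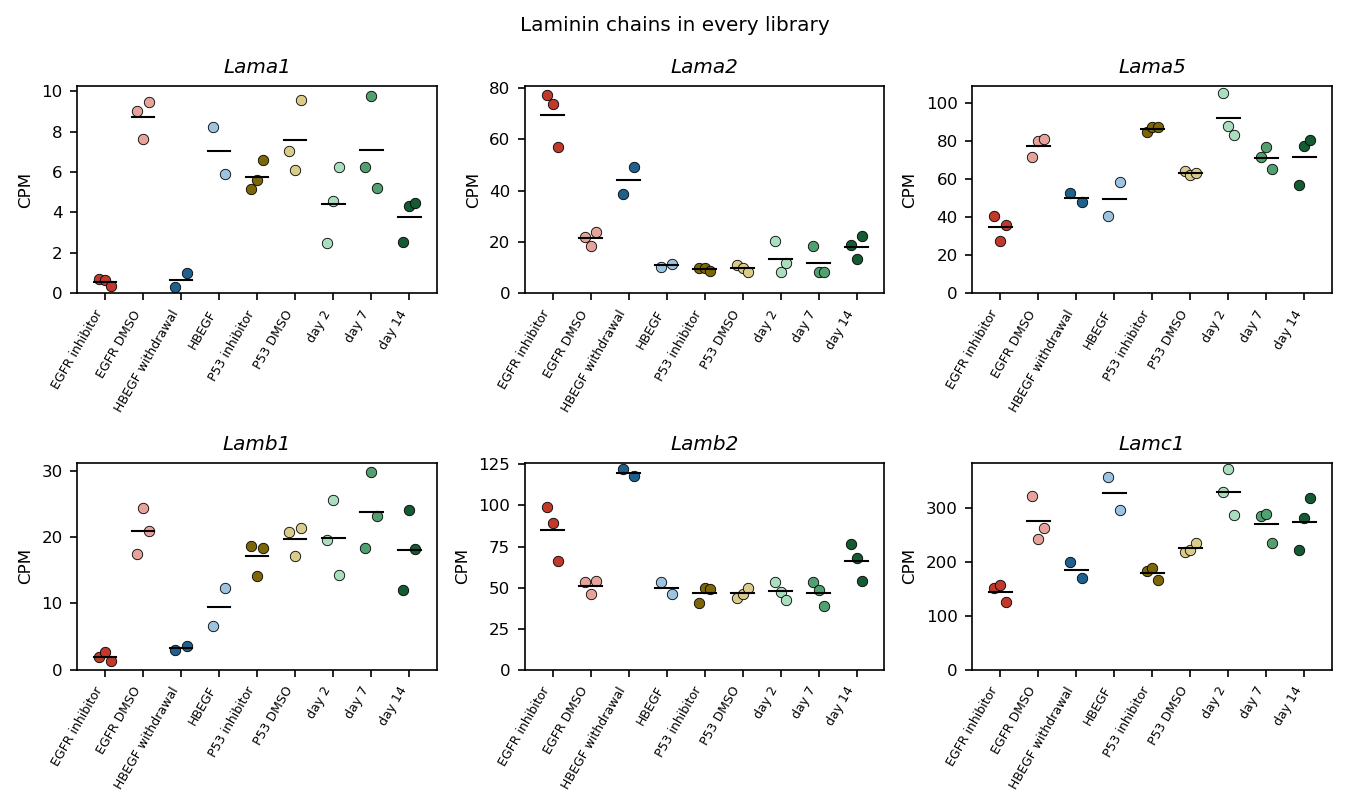
CPM of 6 laminin chains in every library of the 9 groups (points, with the group mean as a line; the vertical axis starts at 0). EGFR inhibitor libraries sit at 0.347 to 0.687 CPM for Lama1 and at 57 to 77.3 CPM for Lama2, and the withdrawal libraries lie on the same sides of their HBEGF controls for both chains.

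The promoters of the beta chains are printed here because Lamb1 and Lamb2 moved in opposite directions. They are RefSeq windows of 300 bases around each gene start in GRCm38.p6, and 40 of the 55 chains have one in the table used. Lamb1 is chr12:31265043-31265342 on the plus strand and Lamb2 is chr9:108479612-108479911 on the plus strand. Capitals mark GGGCGG or its reverse complement CCGCCC, the core of the GC box, searched on both strands. GC boxes were found in 35.7% of all 32851 windows and in 25 of the 40 chains with a window.
Lamb1: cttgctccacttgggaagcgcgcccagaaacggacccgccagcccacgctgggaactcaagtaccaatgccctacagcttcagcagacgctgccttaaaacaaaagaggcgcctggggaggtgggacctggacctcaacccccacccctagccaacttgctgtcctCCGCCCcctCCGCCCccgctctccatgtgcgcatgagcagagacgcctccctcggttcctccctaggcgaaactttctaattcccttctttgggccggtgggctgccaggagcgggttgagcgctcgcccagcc
Lamb2: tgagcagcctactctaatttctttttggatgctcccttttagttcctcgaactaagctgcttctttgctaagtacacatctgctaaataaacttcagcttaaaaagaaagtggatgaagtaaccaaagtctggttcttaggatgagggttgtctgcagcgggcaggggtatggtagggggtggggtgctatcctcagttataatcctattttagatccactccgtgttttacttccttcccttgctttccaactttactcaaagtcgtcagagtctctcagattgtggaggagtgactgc
The Lamb1 window held 2 matches and the Lamb2 window held 0, which says only that these letters are absent from this window. CCAAT was found in 37.4% of all windows, and TATAAA in 13.6%. The Lamb1 window held 1 CCAAT and 0 TATAAA, and the Lamb2 window held neither.

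Among fibrillar collagens, 3 were higher and 4 were lower of 9 tested (77.8% called, against 43.3% of all genes). Col2a1, the chain of cartilage collagen, had 14.3, 15.5 and 16.6 CPM with the inhibitor and 1.74, 2.1 and 1.58 CPM with DMSO. Its log2 change was 2.55 ± 0.33 (limma adjusted p = 1.36e-07), and the groups did not overlap. Col27a1, another fibrillar chain, was at 30, 21 and 30.5 CPM with the inhibitor and at 9.01, 5.1 and 6.44 CPM with DMSO, a log2 change of 1.85 ± 0.29 (limma adjusted p = 6.83e-06). Col1a2, of type I collagen, was at 3.36 ± 0.992 CPM with the inhibitor and 1.26 ± 0.284 CPM with DMSO, a log2 change of 0.93 ± 0.31 (limma adjusted p = 0.0141). It was no longer called without inhibitor replicate 3 (0.0782) or DMSO replicate 1 (0.0603), nor on log2(CPM + 0.25) (0.0597).

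The 4 fibrillar chains that were lower all belong to types V and XI, which seed fibrils and set their width. Col11a1 was at 36.6, 49 and 32.4 CPM with the inhibitor and at 85.8, 102 and 86.7 CPM with DMSO, a log2 change of -1.21 ± 0.16 (limma adjusted p = 3.34e-07). Col5a1 was at 4.77 ± 1.02 CPM with the inhibitor and 15.5 ± 0.968 CPM with DMSO. Col5a3 was at 3.28 ± 1.35 CPM against 11.6 ± 0.831 CPM. Col5a2 was at 21.1 ± 2.67 CPM against 37.5 ± 3.62 CPM. The log2 changes were -1.53 ± 0.31 for Col5a1, -1.6 ± 0.3 for Col5a3 and -0.81 ± 0.18 for Col5a2, each called by limma.

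The fibril-associated class had 5 of 8 tested chains higher and none lower (62.5% called, against 43.3% of all genes). Among them Col22a1, at 1.48 ± 0.503 CPM against 0.53 ± 0.199 CPM, was called in 4 of 9 other processing settings. It was lost without inhibitor replicate 1 (limma adjusted p = 0.127), DMSO replicate 1 (0.0666) or DMSO replicate 3 (0.093). All 3 chains of type IX collagen were among them, with log2 changes of 1.16 ± 0.34 for Col9a1 and 1.33 ± 0.33 for Col9a2, both below 3 CPM on average. Col9a1 was no longer called without inhibitor replicate 2 (limma adjusted p = 0.0657). Col9a3 was at 54.3, 53.6 and 52.5 CPM with the inhibitor and at 27.5, 25.5 and 24.7 CPM with DMSO, a log2 change of 1.02 ± 0.22 (limma adjusted p = 0.00038). Tcfl5, on the other strand, overlaps 6.07% of the exon bases of Col9a3. Col12a1, which bridges fibrils, was at 92.4, 92.1 and 62.4 CPM with the inhibitor and 46.9, 37.6 and 26.3 CPM with DMSO, a log2 change of 1.15 ± 0.28 (limma adjusted p = 0.00189). Col23a1, a transmembrane collagen, was at 5.79 ± 0.656 CPM against 1.57 ± 0.438 CPM. Col18a1, whose end fragment is endostatin, was lower at 4 ± 2.45 CPM with the inhibitor against 14.2 ± 0.94 CPM with DMSO. Its adjusted p was 0.0259 by limma, and it lost its call without any of 5 libraries: 0.0895 without inhibitor replicate 3, 0.0803 without inhibitor replicate 1, and 0.066, 0.0547 and 0.0533 without DMSO replicates 1, 2 and 3.

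Type IV collagen had 2 of 6 chains higher (33.3% called, against 43.3% of all genes). These were Col4a2 and Col4a4, with log2 changes of 0.67 ± 0.21 and 0.85 ± 0.27. Col4a2 was no longer called without inhibitor replicate 1 (limma adjusted p = 0.0516) or DMSO replicate 1 (0.0501), nor Col4a4 without DMSO replicate 3 (0.0595). Col4a1 had a log2 change of 0.52 ± 0.23 (limma adjusted p = 0.0658), and Col4a5 one of 0.51 ± 0.23 (0.0818). Type VI collagen had 1 of 4 tested chains higher (25% called, against the same 43.3%). It was Col6a6, at 1.42 ± 0.783 CPM against 0.243 ± 0.18 CPM. The summed collagen level per exon length was 52.1 ± 2.11 with the inhibitor and 40.8 ± 1.45 with DMSO. The pericyte and smooth muscle markers summed to 121 to 144 CPM with the inhibitor and 66.2 to 84.3 CPM with DMSO. Of 5 tested, 2 were called higher and none lower (40% called, against 43.3% of all genes). Pdgfrb was at 48.8, 49.3 and 40.9 CPM with the inhibitor and at 6.64, 3.6 and 6.56 CPM with DMSO. Notch3 was at 26.6, 24 and 27.5 CPM with the inhibitor and at 23.4, 26.4 and 32.2 CPM with DMSO. The microglia markers summed to 8.3 to 17.7 CPM with the inhibitor and 0.879 to 3.29 CPM with DMSO, and the fibroblast markers to 10.8 to 13.8 CPM against 3.4 to 4.81 CPM. Ogn made up most of the fibroblast sum, at 12, 10.5 and 9.53 CPM with the inhibitor and 2.84, 1.8 and 2.43 CPM with DMSO. The choroid plexus markers summed to 1.33 to 5.32 CPM with the inhibitor and 0.486 to 0.79 CPM with DMSO. The endothelial markers summed to 1.21 to 3.33 CPM with the inhibitor and 3.75 to 6.95 CPM with DMSO. Mitochondrial ribosomal RNA took 22.3 to 25.4% of reads with the inhibitor and 18.4 to 18.8% with DMSO. Of the 10 fibroblast markers, 6 were at 0 in every inhibitor library, Dcn and Lum among them. Their part in the result was not tested.

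After HBEGF withdrawal, 18 chains were higher and 3 were lower than with HBEGF among the 47 tested (44.7% called), against 36.0% of all genes (15.9% higher and 20.1% lower). The median log2 change was 0.58 for the chains and -0.03 for all tested genes. Of the 37 tested collagen chains 16 were higher and none was lower. Of the 10 laminin chains 2 were higher and 3 were lower. Each group had 2 libraries, and 9 of the 21 called chains were still called without HBEGF replicate 2. Without withdrawal replicate 1, 16 chains were called, of which 13 were among the 21. The shares of all genes called in those fits are not given here.

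The laminins that were called moved in the same directions as with the inhibitor, and the 2 experiments share no library. Lama1 was at 0.306 and 0.994 CPM after withdrawal and at 8.23 and 5.89 CPM with HBEGF, a log2 change of -2.3 ± 0.35 (limma adjusted p = 3.32e-06). Lama2 was at 38.8 and 49.1 CPM after withdrawal and at 10.2 and 11.5 CPM with HBEGF, a log2 change of 1.92 ± 0.31 (limma adjusted p = 1.32e-05). Lamb2 was at 122 and 118 CPM after withdrawal and at 53.6 and 46 CPM with HBEGF, a log2 change of 1.26 ± 0.18 (limma adjusted p = 1.88e-06). In each of these chains, withdrawal and HBEGF libraries did not overlap.

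Lamb1 was at 3.06 and 3.58 CPM after withdrawal and at 6.55 and 12.3 CPM with HBEGF, a log2 change of -1.22 ± 0.3 (limma adjusted p = 0.00188). Without HBEGF replicate 2 the adjusted p for Lamb1 was 0.0936. Lamc1 was at 201 and 170 CPM after withdrawal and at 359 and 297 CPM with HBEGF, a log2 change of -0.82 ± 0.16 (limma adjusted p = 0.000104). Lama5 was at 52.5 and 47.7 CPM after withdrawal and at 40.6 and 58.7 CPM with HBEGF, and it was not called (log2 change 0.03 ± 0.18). Per exon length, Lamb2 was 59.4 ± 7.96 times Lamb1 after withdrawal and 9.72 ± 5.11 times with HBEGF (SD, n = 2 each).

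Col8a1, a short-chain collagen of vessel walls and the cornea, had the largest log2 change among the chains in this comparison. Col8a1 was at 15.4 and 16.3 CPM after withdrawal and at 0.514 and 0.164 CPM with HBEGF. These were 183 and 5 reads, and the libraries did not overlap. The log2 difference was 3.67 ± 0.3. Because Col8a1 passed the filter through the withdrawal libraries alone, its p is taken from the fit of all genes without a filter (limma adjusted p = 5.97e-10). Outside the withdrawal group the highest library of the other 8 groups reached 0.871 CPM.

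Of 9 tested fibrillar chains 6 were higher and none was lower (66.7% called, against 36.0% of all genes). Col1a2, the alpha 2 chain of type I collagen, was at 10.7 and 5.37 CPM after withdrawal and at 0.643 and 0.491 CPM with HBEGF, a log2 change of 2.46 ± 0.38 (limma adjusted p = 4.37e-06). Col2a1 was at 10.6 and 23.6 CPM after withdrawal against 6.68 and 1.64 CPM with HBEGF, a log2 change of 1.91 ± 0.4. Col27a1 had a log2 change of 1.61 ± 0.35, Col5a2 one of 1.21 ± 0.22 and Col11a2 one of 0.84 ± 0.32. Without HBEGF replicate 2 the adjusted p was 0.0511 for Col2a1, 0.0513 for Col27a1 and 0.159 for Col11a2, and without withdrawal replicate 1 it was 0.224 for Col11a2. Col3a1 was at 5.51 and 0 CPM after withdrawal and at 0 CPM in both HBEGF libraries, so its call rests on withdrawal replicate 1.

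That library stood apart for several collagens. It had the highest level over all 25 libraries for 17 of the 55 chains, against 5 for withdrawal replicate 2. The laminins Lamb2, Lama3 and Lama4 were among the 17. The same count was not made over all genes, so it is not shown to be particular to these chains. Col20a1 was at 23.9 CPM in replicate 1 and 0.596 CPM in replicate 2 after withdrawal, and at 1.03 and 0 CPM with HBEGF. Col4a1 was at 35.6 and 12.7 CPM after withdrawal and at 12.1 and 11.1 CPM with HBEGF. Without withdrawal replicate 1 the adjusted p was 0.834 for Col20a1, 1 for Col3a1 and 0.766 for Col4a1. Type VI collagen forms beaded filaments, and its chain Col6a1 was also highest in withdrawal replicate 1. Col6a1 was at 11.5 and 4.97 CPM after withdrawal and at 3.73 and 0.982 CPM with HBEGF, and its adjusted p was 0.284 without that library and 0.352 without HBEGF replicate 2.

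Col6a2 and Col6a3 had log2 changes of 1.27 ± 0.4 and 1.07 ± 0.36, with adjusted p of 0.0792 and 0.0804 without withdrawal replicate 1. Without HBEGF replicate 2 these were 0.195 and 0.0773, and Col6a3 was lost without HBEGF replicate 1 too (0.0678).

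Col5a1 was at 32.7 and 6.95 CPM after withdrawal and at 21.5 and 17.2 CPM with HBEGF, so its libraries after withdrawal lay on both sides of the HBEGF libraries. It was not called (log2 change -0.3 ± 0.38), and without withdrawal replicate 1 it was called lower, at -1.35 (limma adjusted p = 0.00118). Lama4 was at 30.7 and 5.56 CPM after withdrawal and at 5.78 and 5.89 CPM with HBEGF, and it was not called (log2 change 1.08 ± 0.65).

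Of 8 tested fibril-associated chains 3 were higher (37.5% called, against 36.0% of all genes). Col12a1 was at 96 and 69.7 CPM after withdrawal and at 38.4 and 28.3 CPM with HBEGF, a log2 change of 1.29 ± 0.34 (limma adjusted p = 0.00491). Its adjusted p was 0.0597 without withdrawal replicate 1 and 0.0665 without HBEGF replicate 2. Col22a1, found at tissue junctions, was at 2.51 ± 0.951 CPM after withdrawal and at 0 in both HBEGF libraries.

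Col4a2 did not rest on withdrawal replicate 1. It was at 25.5 and 16.9 CPM after withdrawal and at 7.97 and 4.58 CPM with HBEGF, a log2 change of 1.62 ± 0.26 (limma adjusted p = 9.89e-06), and its adjusted p stayed at or below 0.0103 in all 35 other settings. Per exon length, Col4a1 was 0.952 ± 0.403 times Col4a2 after withdrawal and 1.75 ± 0.572 times with HBEGF. The genes of these chains sit head to head at chr8:11198423-11312826 and chr8:11312805-11449287, overlapping by 22 bases. The RefSeq windows around their starts, in GRCm38.p6, are chr8:11312777-11313076 on the minus strand for Col4a1 and chr8:11312555-11312854 on the plus strand for Col4a2. They are shown because the 2 chains share this stretch, with capitals marking the 78 bases that lie in both windows, read on opposite strands.
Col4a1: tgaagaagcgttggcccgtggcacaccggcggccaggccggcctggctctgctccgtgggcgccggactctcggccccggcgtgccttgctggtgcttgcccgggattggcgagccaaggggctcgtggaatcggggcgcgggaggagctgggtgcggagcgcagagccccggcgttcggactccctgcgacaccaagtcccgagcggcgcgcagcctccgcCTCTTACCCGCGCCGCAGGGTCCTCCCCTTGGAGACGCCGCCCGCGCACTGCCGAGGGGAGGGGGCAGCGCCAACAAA
Col4a2: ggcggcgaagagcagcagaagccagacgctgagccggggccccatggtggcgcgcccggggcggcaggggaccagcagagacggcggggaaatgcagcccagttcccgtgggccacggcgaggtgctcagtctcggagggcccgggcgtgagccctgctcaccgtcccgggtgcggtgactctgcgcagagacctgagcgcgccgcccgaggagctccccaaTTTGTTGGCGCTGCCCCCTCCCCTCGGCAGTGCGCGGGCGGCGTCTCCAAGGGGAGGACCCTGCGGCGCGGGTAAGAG
The Col4a1 window held 1 GC box match and the Col4a2 window 3, and each held 1 CCAAT and no TATAAA. Their GC content was 74 and 73.7%, against 53.8% over all windows.

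Summed markers of other cell types were also higher after withdrawal, though not every single marker was. The fibroblast and meningeal markers summed to 81.5 to 88.9 CPM after withdrawal and 6.38 to 23.5 CPM with HBEGF, mostly from Ogn and Fmod, while Dcn, Lum, Slc22a6, Slc6a13 and Dpt were at 0 after withdrawal. The pericyte and smooth muscle markers summed to 240 to 347 CPM against 84.3 to 102 CPM, with Kcnj8, Abcc9 and Vtn at 0. This rise lay mostly in Acta2 and Pdgfrb, while Notch3 was at 21.5 and 23.8 CPM against 27.9 and 27.6 CPM. The endothelial markers summed to 13.5 to 15 CPM against 2.7 to 3.76 CPM, with Cldn5, Cdh5, Tie1 and Emcn at 0. Slco1a4 and Kdr made up most of that sum, while Flt1 was at 0 and 0.199 CPM against 0.9 and 1.8 CPM. Of 5 tested endothelial markers 2 were called higher and 1 lower (60% called, against 36.0% of all genes). The microglia markers summed to 16.9 to 22.9 CPM against 1.04 to 1.58 CPM, with Tmem119 at 0. The choroid plexus markers summed to 3.36 to 6.16 CPM against 0.257 to 0.491 CPM, with Ttr, Kl and Kcne2 at 0. Mitochondrial ribosomal RNA took 28 to 29.8% of reads after withdrawal and 17.2 to 18.2% with HBEGF. The part of these in the chain changes was not tested.

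**Figure D3:**
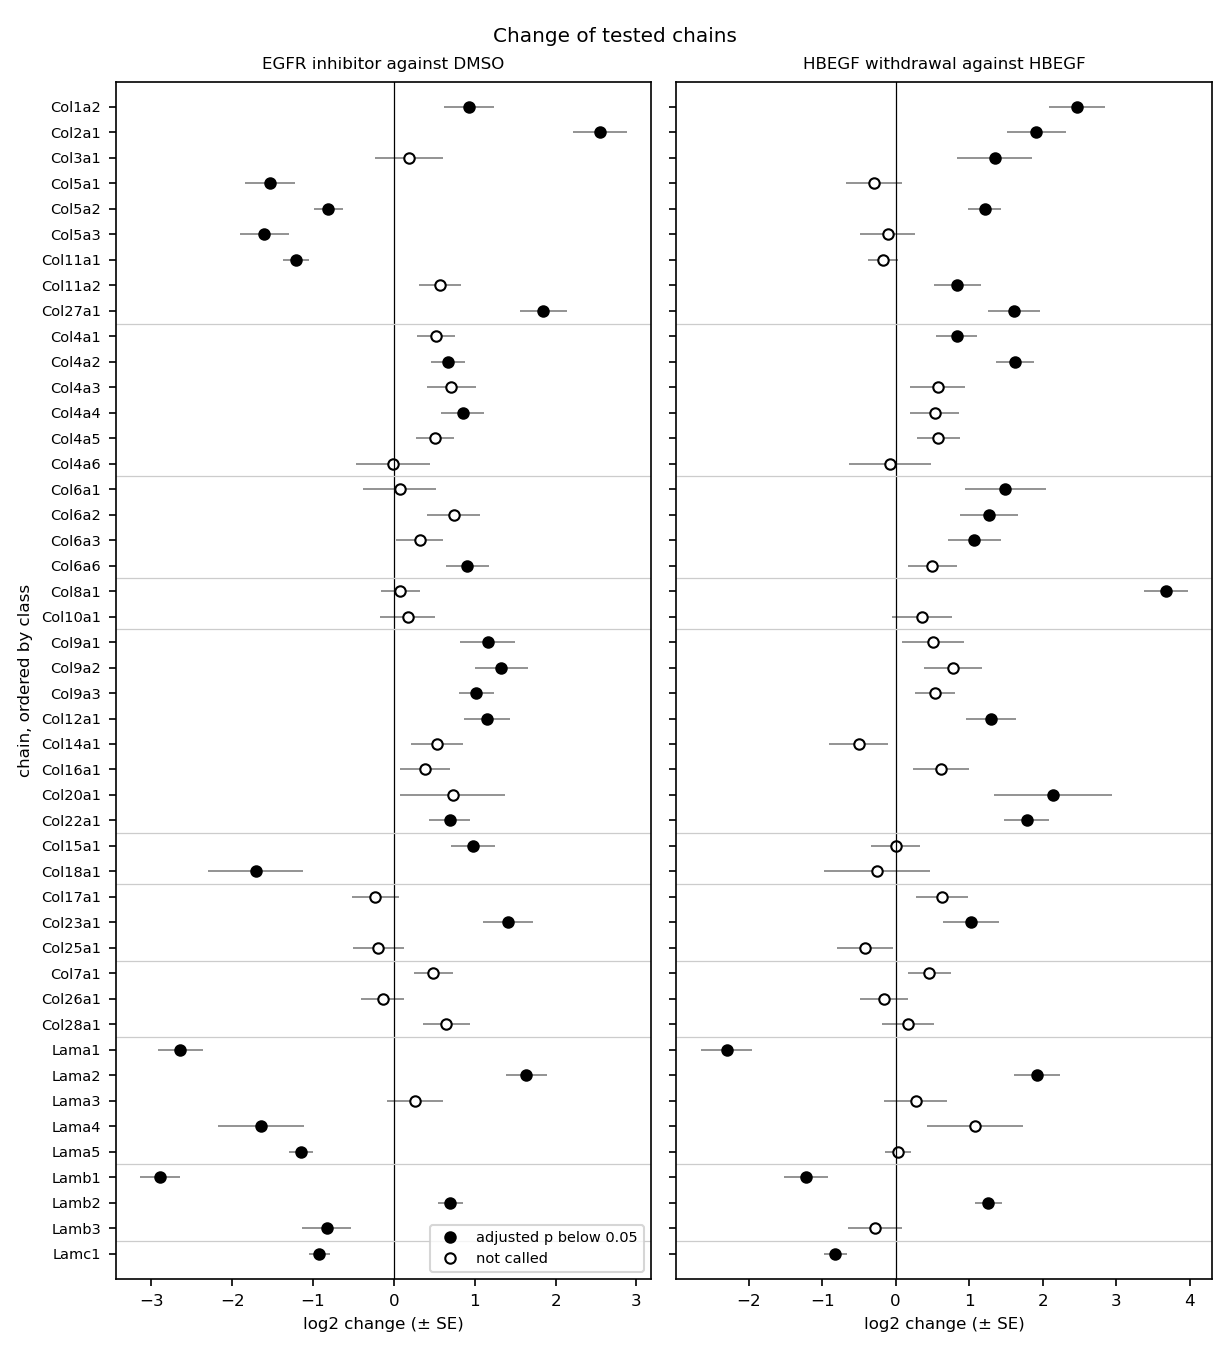
Log2 change ± SE of 46 tested chains (down, by class) for the EGFR inhibitor against DMSO and for HBEGF withdrawal against HBEGF; filled points were called at an adjusted p below 0.05 by limma. The inhibitor panel has 15 filled points right of 0 and 11 left of it, and the withdrawal panel 18 and 3.

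The difference between the inhibitor change and the withdrawal change was tested in itself, and 5 chains were called. These were 10.6% of the chains, against 3.86% of all genes (2.34% with a positive and 1.52% with a negative difference). In all 5 chains the inhibitor change minus the withdrawal change was negative. Col8a1 changed by 0.08 with the inhibitor and by 3.67 after withdrawal, a difference of -3.59 ± 0.38. In the fit of all genes without a filter, the limma adjusted p was 1.47e-06. Col5a2 changed by -0.81 and by 1.21, a difference of -2.02 ± 0.29 (limma adjusted p = 6.56e-05). Lama5 changed by -1.15 and by 0.03, a difference of -1.19 ± 0.23 (limma adjusted p = 0.00213). Lamb1 fell in both, by 2.89 and by 1.22, a difference of -1.67 ± 0.39 (limma adjusted p = 0.0113). The Lamb1 difference was called in 6 of 9 other processing settings. Its limma adjusted p was 0.152 on log2(RPKM + 1), 0.0822 on log2(RPKM + 0.1) and 0.0965 with voom on recovered reads. Col11a1 changed by -1.21 and by -0.17, a difference of -1.04 ± 0.26 (limma adjusted p = 0.0164). On log2(RPKM + 0.1) its limma adjusted p was 0.0618. Without HBEGF replicate 1, Lamb1 and Col11a1 were no longer called (adjusted p 0.121 and 0.0938). Col11a1 was also lost without inhibitor replicate 3 (0.0521) or withdrawal replicate 1 (0.0634).

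**Figure D4:**
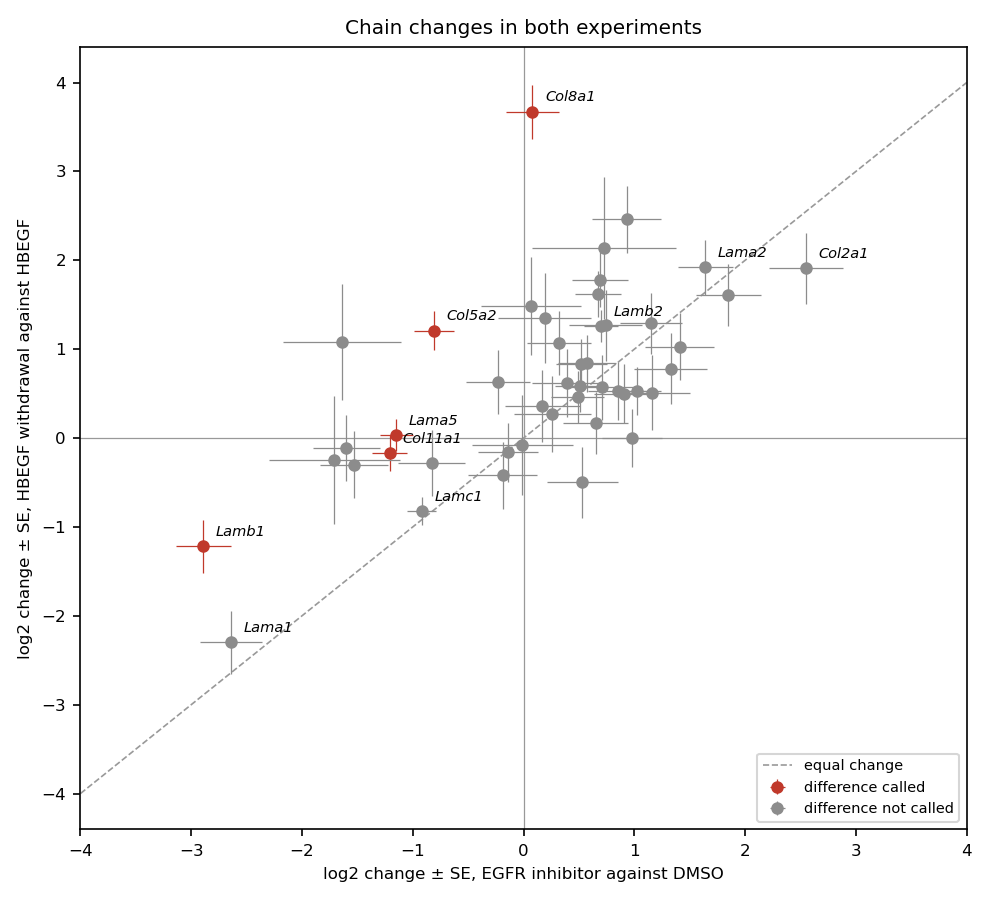
Log2 change ± SE with the EGFR inhibitor (horizontal axis) and after HBEGF withdrawal (vertical axis) for 46 tested chains, with the line of equal change. The 5 chains in red were called for the difference between the changes, and Col8a1 lies at 0.08 and 3.67.

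With the P53 inhibitor no chain was called, against 0.475% of all genes (0.121% higher and 0.353% lower). An unadjusted limma p below 0.05 was found for 5 of the 47 chains and for 1704 of all 19805 genes. Lama5 was at 86.4 ± 1.55 CPM with the P53 inhibitor and 63.4 ± 1.11 CPM with DMSO, a log2 change of 0.44 ± 0.15 (limma adjusted p = 0.225). Lamc1 was at 180 ± 11.3 CPM against 226 ± 8.23 CPM, a log2 change of -0.33 ± 0.13 (limma adjusted p = 0.379). Fitted on the P53 libraries alone, 6 chains were called (12.8% of the 47), 2 higher and 4 lower, Lama5 and Lamc1 among them, against 4.8% of all genes in that fit.

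Over days in culture, 3 chains were higher and 8 lower on day 14 than on day 2 (23.4% called, against 25.2% of all genes, 7.82% higher and 17.4% lower). On day 7 against day 2, 1 was higher and 9 were lower (21.3%, against 15.9% of all genes, 5.76% higher and 10.2% lower). Between day 14 and day 7 no chain was called by limma, against 0.747% of all genes (0.353% higher and 0.394% lower). Comparisons with day 2 share its 3 libraries. The astrocyte markers summed to 1470 to 2430 CPM on day 2, 2750 to 3610 CPM on day 7 and 2880 to 4840 CPM on day 14. The pericyte and smooth muscle markers summed to 44.1 to 65.3, 84.9 to 217 and 89.6 to 165 CPM on those days, with Kcnj8 at 0 on each. The microglia markers summed to 4.52 to 4.84, 1.15 to 2.69 and 0.681 to 1.31 CPM, with Tmem119 at 0 on each. Mitochondrial ribosomal RNA took 12.3 to 16.1, 18.9 to 19.4 and 20.2 to 23.9% of reads. Their part in the chain changes over days was not tested.

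Col18a1 was at 43.2, 32.2 and 25 CPM on day 2, at 2.42, 0.208 and 6.48 CPM on day 7 and at 0.898, 1.01 and 2.64 CPM on day 14. All day 2 libraries lay above all later ones. The log2 change on day 14 against day 2 was -3.81 ± 0.59 (limma adjusted p = 0.000109). Col5a1 was at 61.1, 54.6 and 36.7 CPM on day 2, at 9.8, 10.8 and 10.7 CPM on day 7 and at 6.28, 10.1 and 9.09 CPM on day 14, with a log2 change of -2.44 ± 0.31 on day 14 against day 2 (limma adjusted p = 1.53e-06).

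Col26a1, a collagen first described in testis and ovary, moved the other way. It was at 2.47, 4.79 and 2.54 CPM on day 2, at 13.1, 17.1 and 10.5 CPM on day 7 and at 21.5, 39.2 and 26.9 CPM on day 14. The day groups did not overlap. Its log2 change was 2.82 ± 0.27 on day 14 against day 2 (limma adjusted p = 1.21e-09) and 1.79 ± 0.27 on day 7 against day 2. Col4a1 rose to 28.6 ± 2.82 CPM on day 14, against 15.5 ± 3.07 CPM on day 2, a log2 change of 0.86 ± 0.23 (limma adjusted p = 0.00502).

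Col5a3, Col11a1 and Col12a1 were lower on day 14 than on day 2, with log2 changes of -1.39 ± 0.3, -0.66 ± 0.16 and -1.43 ± 0.28. Col1a2 and Col6a1 were called lower at means of at most 0.769 CPM on day 14. Col1a2 was no longer called without day 2 replicate 1 (limma adjusted p = 0.0868), day 2 replicate 2 (0.121) or day 14 replicate 1 (0.0981). Col6a1 was called in 3 of 10 other processing settings, and its adjusted p was 0.189 without day 2 replicate 1 and 0.156 without day 14 replicate 2. Lamb2 was at 66.4 ± 11.4 CPM on day 14 and 47.8 ± 5.46 CPM on day 2 (limma adjusted p = 0.0216), and the call was lost without any of 4 libraries, the highest adjusted p being 0.142. The laminins that changed most with the EGFR inhibitor did not pass the test over days: Lama1 was at 3.77 ± 1.07 CPM on day 14 and 4.43 ± 1.89 CPM on day 2, and Lamb1 at 18 ± 6 CPM and 19.8 ± 5.57 CPM. On day 7 against day 2 the other chains that were lower included Col4a4, at 2.37 ± 0.358 CPM on day 7 and 6.24 ± 1.98 CPM on day 2. Col22a1, Col25a1 and Col28a1 were called lower too, each at a mean below 1 CPM on day 7. Col25a1 was called in 1 of 9 other processing settings and Col28a1 in 3 of 9. Both were lost without any of 5 libraries, with adjusted p up to 0.212 for Col25a1 and 0.151 for Col28a1, each without day 2 replicate 2.

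Of the 47 tested chains 38 were called in at least 1 comparison. That count was not made over all genes, of which 43.3% were called in the EGFR inhibitor comparison by itself. The 9 chains that were called in none were Col4a3, Col4a5, Col4a6, Col7a1, Col10a1, Col14a1, Col16a1, Col17a1 and Lama3. The library day 7 replicate 3 had the highest level over all 25 libraries for 4 of the 55 chains, Col4a5 (52.1 CPM) and Col4a6 (16.9 CPM) among them. This count was not made over all genes either.

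**Figure D5:**
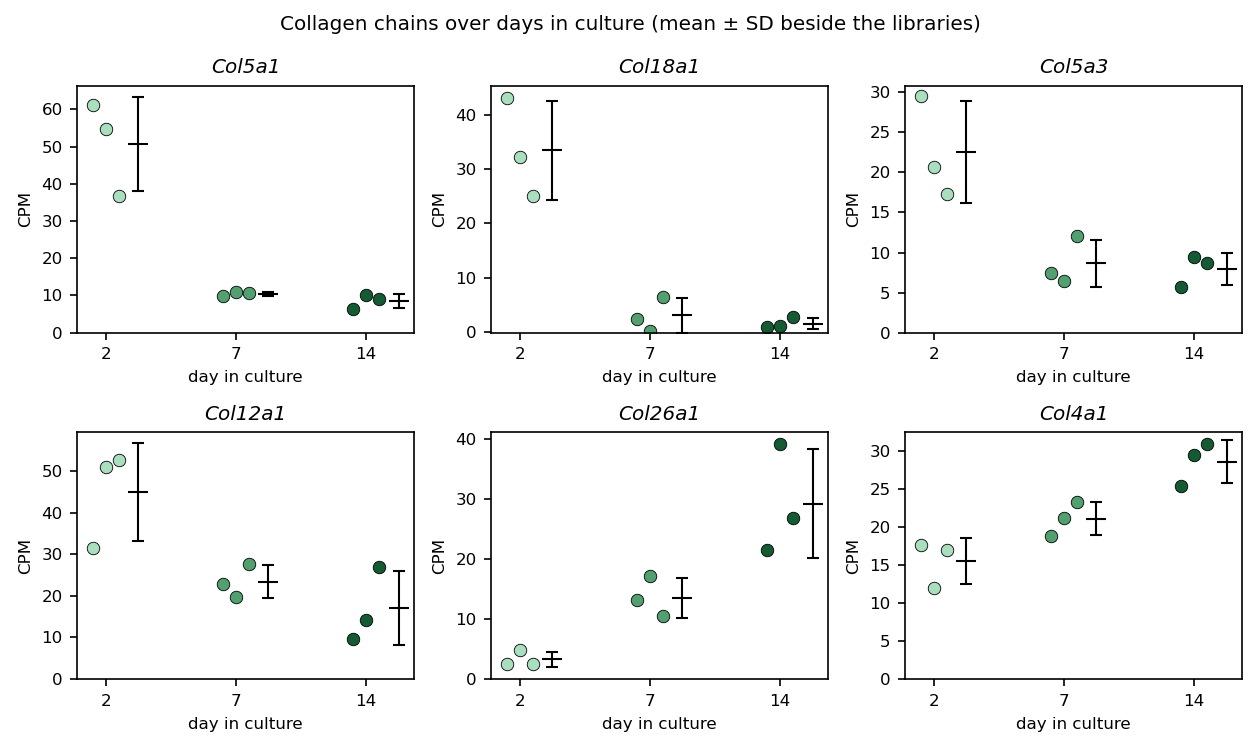
CPM of 6 collagen chains on days 2, 7 and 14 in vitro (points are libraries, 3 a day; mean ± SD beside them). Col18a1, Col5a1, Col5a3 and Col12a1 are highest on day 2, and Col26a1 and Col4a1 on day 14.

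Genes that handle these chains were described from 4 lists. Of 12 basement membrane partners 1 was higher and 5 were lower with the EGFR inhibitor (50% called, against 43.3% of all genes). After withdrawal 1 was higher and 2 were lower (25%, against 36.0% of all genes). Frem2, a membrane-anchored matrix protein, had a log2 change of 2.26 ± 0.23 with the inhibitor and 1.55 ± 0.28 after withdrawal. Ntn1, the guidance cue netrin 1, had changes of -1.36 ± 0.19 and -1.68 ± 0.23. Of 14 tested collagen and laminin receptors 5 were higher and 3 were lower with the inhibitor (57.1% called, against 43.3% of all genes). After withdrawal 5 were higher and 2 were lower (50%, against 36.0% of all genes). Itgb1, the integrin beta 1 chain that pairs with most collagen and laminin binding alpha chains, was at 226 ± 22.8 CPM with the inhibitor and 546 ± 13.2 CPM with DMSO. It was at 189 ± 37.8 CPM after withdrawal and 449 ± 67.2 CPM with HBEGF, with log2 changes of -1.27 ± 0.11 and -1.25 ± 0.14.

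Of 29 collagen processing enzymes 6 were higher and 8 were lower with the inhibitor (48.3% called, against 43.3% of all genes), and 8 and 5 after withdrawal (44.8%, against 36.0%). P4ha3, a subunit of the prolyl hydroxylase that stabilises the collagen helix, was at 128 ± 28.5 CPM with the inhibitor and 8.47 ± 1.59 CPM with DMSO, a log2 change of 3.76 ± 0.24 (limma adjusted p = 1.42e-13). P4hb, its partner subunit, was at 164 ± 4.58 CPM with the inhibitor and 293 ± 26.4 CPM with DMSO. Adamts14, which trims procollagen, was at 0 CPM in all inhibitor libraries and at 34.5 ± 11.1 CPM with DMSO. Of 12 tested matrix proteases and their inhibitors 5 were higher and 4 were lower with the inhibitor (75% called, against 43.3% of all genes). Mmp15, a membrane-bound protease, was at 20.6 ± 1.07 CPM with the inhibitor against 147 ± 3.22 CPM with DMSO, and at 19.3 ± 2.82 CPM after withdrawal against 101 ± 33.8 CPM with HBEGF. On day 14, 1 processing enzyme was higher and 7 were lower than on day 2 (27.6%, against 25.2% of all genes), and Timp3, a matrix-bound protease inhibitor, was at 125 ± 31.7 CPM against 21.1 ± 2.13 CPM.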

How the data were processed

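RNA-seq of immunopanned mouse cortical astrocytes was analysed in 25 libraries of 9 groups. Per the submitters' processing notes, reads were processed with STAR, HTSeq, edgeR and limma on GRCm38; their versions, and how reads were assigned to genes and strands, are not stated there. The deposited values are RPKM, which the file's values show to be divided by the whole gene span: RPKM times span summed to 999128 to 1002611 per library with GENCODE spans, against 377054 to 519436 with exon length. CPM was therefore RPKM times span in kilobases, and 98.7% of entries were matched to 1 annotated gene. At 20 reads or fewer, 99.0 to 99.3% of the recovered read numbers lay within 0.1 of an integer.

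Genes at 1 CPM in at least 2 libraries were fitted by limma with 9 group means, trend and robust empirical Bayes, on log2(CPM + 1). Benjamini-Hochberg adjustment ran over all genes tested, in each comparison. CPM was preferred because only 4 chains reach an RPKM of 1 in 2 libraries. The code was tested on simulated data. Fits used limma 3.58.1 in R 4.3.3. Tables were made with numpy 2.4.6 and pandas 2.3.3 in Python 3.11.15, and plots with matplotlib 3.10.9. Alternatives were other pseudocounts and filters, RPKM scales, other scalings, voom on recovered reads, each experiment alone, a replicate block and leaving out each library.

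Named chains were those called with a log2 change of at least 1 and a mean of at least 5 CPM in the higher group (up to 12 per direction), a set of chains named whatever their result, chains called in the difference, and up to 3 genes by p from each other list. Other chains were named after their values were seen, to account for the members. For 1 tested chain no values are reported here, and the plots leave it out, while counts include it. The members, lists and rule were chosen with earlier results of these data known. Replicate numbers were not used to pair the libraries in the main fit. The correlation of deviations from group means between same-numbered libraries ran from -0.194 to 0.18. In groups of 2 or 3 libraries this cannot show whether same-numbered libraries share a preparation.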

Additional observations from a re-analysis of the deposited data

Results flagged for a closer look

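The change with the EGFR inhibitor and the change after HBEGF withdrawal differed for 5 chains when the difference itself was tested by limma over both experiments, which share no library. The difference (inhibitor change minus withdrawal change, in log2) was -2.02 for Col5a2, -1.67 for Lamb1, -1.19 for Lama5 and -1.04 for Col11a1. It was -3.59 for Col8a1, which passed the filter on low values only through the withdrawal libraries, where it is high, and it was the same without that filter. Col5a2 was lower with the inhibitor and higher after withdrawal, and both of its changes were called. Lamb1 was lower in both experiments. The difference was called in 6 of 9 other processing settings for Lamb1 and in 8 of 9 for Col11a1. Groups of 2 or 3 libraries were too small to look for outlying samples by a fixed rule.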

How the results depend on the processing

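No called chain took the opposite sign in any setting run, and the number of chains called moved as follows. Shares of all genes called in the same settings are not set beside these counts. The moves are therefore not shown to be particular to the chains. For the EGFR inhibitor, leaving out a library gave 22 to 28 chains. For withdrawal it gave 9 to 23, and fitting each experiment alone gave 13. For the P53 inhibitor leaving out a library gave 0 and fitting it alone gave 6. For day 14 against day 2 the range was 8 to 15. For day 7 against day 2 it was 7 to 13, and log2(RPKM + 1), log2(RPKM + 0.1) and a filter of 5 CPM gave 6 each, the last because 27 chains were tested. For day 14 against day 7 it was 0 to 1. Median-of-ratios scaling gave 2 there, and log2(RPKM + 1), log2(RPKM + 0.1), scaling without mitochondrial genes, voom on recovered reads and a replicate block gave 1 each, Col26a1. For the difference it was 3 to 11, the low value without HBEGF replicate 1 and the high one without withdrawal replicate 2. The replicate block gave 27, 21, 0, 11, 11, 1 and 5 chains in the 7 tests (inhibitor, withdrawal, P53 inhibitor, day 14 against 2, day 7 against 2, day 14 against 7, difference). Whether same-numbered libraries share a preparation is not known. The cause of the other moves was not tested. Scaling by median of ratios shifted the median change of 7142 genes, in log2, by 0.13 after withdrawal and by 0.16 on day 14 against day 2. Fitting each experiment alone gives no value for the difference. With 1 read worth up to 0.249 CPM, chains below 1 CPM cannot be ranked.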
